A study of Mus musculus with 20 samples.

Results

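The Bex genes (brain expressed, X-linked) form a small family of X-linked genes in placental mammals, and the 4 mouse members Bex1, Bex2, Bex3 and Bex4 were taken from both deposited expression tables by gene symbol. They are 4 of the 53722 genes in the oocyte table and 4 of the 55291 genes in the spermatogonia table. The study measured RNA in mouse germ cells lacking Chd4, the ATPase of the NuRD nucleosome remodelling and deacetylase complex, with 2 libraries in each of 10 groups. The family was chosen by its TPM differences between knockout and control libraries in these same data. The values of its members are therefore given as a description, and counts of members past the test stand beside the share of all genes that passed and are not read as support.

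In oocytes of postnatal days 1 and 5 (P1 and P5), the knockout (DcKO) carried Chd4 f/-; Ddx4-Cre Tg/+, and its control (Dctrl) carried Chd4 f/+; Ddx4-Cre Tg/+, so that both groups had the germ cell Cre and the control retained an allele without loxP sites. These were non-growing oocytes (NGO), which have not begun to grow. At P10, the knockout (GcKO) was Chd4 f/f; Gdf9-iCre Tg/+ and the control (Gctrl) was Chd4 f/f without a Cre. Gdf9-iCre is active in oocytes, and both NGO and growing oocytes (GO) were taken at P10. The P3 samples were undifferentiated spermatogonia of DcKO and Dctrl testes. All mice had a mixed background of C57BL/6, 129S1/Sv and FVB/NJ. The labels do not say how many animals went into a library or whether the 2 libraries of a group came from separate animals, so p-values measure only the spread between these samples, which may be technical.

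BEX proteins are short, largely unstructured proteins that act through their partners. Rat BEX1 binds the intracellular part of the neurotrophin receptor p75NTR, and BEX3, also called NADE or Ngfrap1, was described as a p75NTR-associated cell death executor. BEX proteins also bind and block FEM1B, the substrate receptor of a CUL2 ubiquitin ligase, in cultured cells. Human BEX2 and BEX4 have been studied in tumour cells, BEX2 in control of the cell cycle and apoptosis and BEX4 as a tubulin-binding protein. The Bex genes lie among the related Tceal genes, which encode TCEAL proteins similar to the transcription elongation factor TFIIS.

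The family members resemble each other in pairs, and the stretch just upstream of each gene shows which genes are paired. The 250 bases before the annotated start of each gene are printed 5′ to 3′ on the gene's own strand, from the RefSeq annotation of GRCm38.p6. Capitals mark the longest run that the gene shares, base for base, with its partner. All 4 genes were matched in that table. Bex1 lies on the minus strand and its window is chrX:136215514-136215763. Bex4 lies on the plus strand and its window is chrX:136138746-136138995. Bex2 lies on the minus strand and its window is chrX:136068237-136068486. Bex3 lies on the plus strand and its window is chrX:136270003-136270252.
Bex1: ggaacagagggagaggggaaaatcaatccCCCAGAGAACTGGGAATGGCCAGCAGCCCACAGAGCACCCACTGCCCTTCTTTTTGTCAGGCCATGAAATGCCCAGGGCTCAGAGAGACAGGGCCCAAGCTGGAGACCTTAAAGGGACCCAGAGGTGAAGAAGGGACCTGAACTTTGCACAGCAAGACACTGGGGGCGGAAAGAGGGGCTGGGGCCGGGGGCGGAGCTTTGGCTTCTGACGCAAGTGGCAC
Bex4: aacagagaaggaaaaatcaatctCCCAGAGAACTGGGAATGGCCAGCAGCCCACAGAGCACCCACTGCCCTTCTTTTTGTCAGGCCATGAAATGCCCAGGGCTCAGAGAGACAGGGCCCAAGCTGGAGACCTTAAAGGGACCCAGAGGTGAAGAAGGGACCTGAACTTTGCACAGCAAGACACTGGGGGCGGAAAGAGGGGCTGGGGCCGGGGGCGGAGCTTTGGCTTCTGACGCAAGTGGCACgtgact
Bex2: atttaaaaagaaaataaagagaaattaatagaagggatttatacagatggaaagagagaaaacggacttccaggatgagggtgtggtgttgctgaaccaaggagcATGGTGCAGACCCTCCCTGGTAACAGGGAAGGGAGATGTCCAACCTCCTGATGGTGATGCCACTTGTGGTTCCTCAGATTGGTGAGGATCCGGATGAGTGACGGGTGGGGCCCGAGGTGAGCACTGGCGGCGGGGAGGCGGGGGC
Bex3: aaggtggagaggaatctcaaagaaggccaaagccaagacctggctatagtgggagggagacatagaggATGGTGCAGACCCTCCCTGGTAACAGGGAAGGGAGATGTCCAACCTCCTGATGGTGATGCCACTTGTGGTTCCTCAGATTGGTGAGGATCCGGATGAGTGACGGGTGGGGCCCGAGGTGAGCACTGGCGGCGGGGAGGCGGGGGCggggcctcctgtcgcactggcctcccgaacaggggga

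Bex1 and Bex4 shared a run of 221 bases in these windows, and Bex2 and Bex3 shared a run of 145 bases. No other pair shared a run of more than 9 bases. In the best local alignment, Bex1 and Bex4 were identical at 98.8% of 240 aligned positions, and Bex2 and Bex3 at 99.3% of 149. Motifs were searched on both strands in the window from 250 bases before to 50 bases after the start, in the same 32851 promoters for every motif. GGGCGG, the GC box, was present in 4 of 4 Bex windows and in 35.7% of all promoters. CACGTG, an E box, was present in Bex1, Bex3 and Bex4 and in 7.15% of all promoters. The longer CACGTGAC, which contains that E box, was present in the same 3 genes and in 2.25% of all promoters. Bex1 and Bex4 share the long run given above, so their motifs cannot be counted as separate occurrences. TATAAA was found only in the Bex2 window, against 13.6% of all promoters. The windows held 8 CpG dinucleotides in Bex1, 12 in Bex2, 13 in Bex3 and 9 in Bex4, beside a median of 7 over all promoters.

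In GENCODE M21, which uses GRCm38 as the submitters' processing notes do, the genes lie on chromosome X within 205 kb. Bex2 (ENSMUSG00000042750) spans 136066564 to 136068236 on the minus strand, Bex4 (ENSMUSG00000047844) 136138996 to 136140443 on the plus strand, Bex1 (ENSMUSG00000050071) 136213972 to 136215513 on the minus strand, and Bex3 (ENSMUSG00000046432) 136270253 to 136271978 on the plus strand. That interval holds 9 protein-coding genes, the others being Nxf3, Tceal5, Tceal7, Tceal8 and Tceal9. The more distant relative Bex6 lies on chromosome 16. The main transcript of each Bex gene has 3 exons, and all of the coding sequence, 384 bases in Bex1, 387 in Bex2, 372 in Bex3 and 354 in Bex4, lies in exon 3.

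The pairing continued into the transcripts. The transcripts of Bex1 and Bex4 shared a run of 252 bases that covers exons 1 and 2, except for the first bases of the Bex1 transcript, and ends just before the coding part. Bex2 and Bex3 shared runs of 152 and 61 bases in exons 1 and 2. Bex1 and Bex2 shared runs of 55 and 108 bases inside the coding part of exon 3. Since both reads of a pair were 150 bases long, windows of that length show where a read could match more than 1 gene. Of the 717 windows of the Bex1 transcript 103 occurred also in Bex4, and of the 688 windows of Bex4 the same number occurred in Bex1, which is 14.4% and 15.0%. The share was 1.46% of 754 windows in Bex2 and 0.384% of 781 in Bex3, each shared with the other. No window of any Bex transcript occurred in a gene outside the family. The values of Bex1 and Bex4 are therefore less certain than those of Bex2 and Bex3. The exons of Bex1 also overlap those of Tceal7 on the opposite strand over 223 of 1186 bases, and reads of Bex1 and Tceal7 there cannot be told apart unless counting used strand, which is not given in the sources used here.

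**Figure D1:**
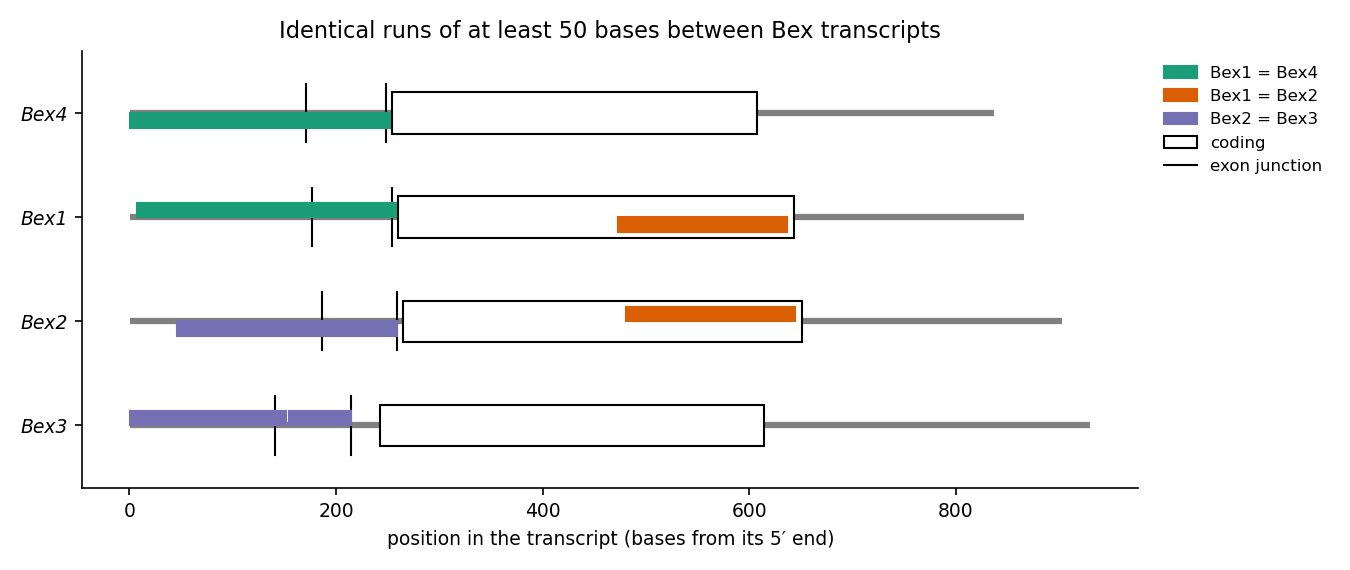
Main transcripts of Bex4, Bex1, Bex2 and Bex3 drawn to scale, with position in bases from the 5′ end on the horizontal axis. White boxes are coding sequence, black ticks are exon junctions and coloured bars are identical runs of at least 50 bases: Bex1 and Bex4 share their first 2 exons, Bex2 and Bex3 most of theirs, and Bex1 and Bex2 part of the coding sequence.

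Levels are in TPM, the deposited unit, which corrects for gene length and library total and so allows comparison between genes. Library totals recovered from the TPM values were 15.3 M to 30.1 M reads. Chd4 was at 3.11 ± 1.71 TPM in P1 DcKO and at 27.9 ± 4.66 TPM in P1 Dctrl oocytes (SD, n = 2 each), at 8.28 and 4.94 TPM in P5 DcKO and 14.5 and 17.9 TPM in P5 Dctrl, and at 40.2 and 51.7 TPM in DcKO and 249 and 286 TPM in Dctrl spermatogonia. At P10 it was low in every library, at 1.34 and 0.247 TPM in GcKO NGO against 1.63 and 1.85 TPM in Gctrl NGO, and at 0.631 and 1.54 TPM in GcKO GO against 1.56 and 2.96 TPM in Gctrl GO. The oocyte marker Dppa3 was the leading germ cell marker in all 16 oocyte libraries, and the spermatogonial markers Gfra1 and Zbtb16 were high in spermatogonia, with 171 to 222 TPM and 44.2 to 110 TPM. Summed over the whole list, 17 markers of gonadal supporting cells stood at 4.22 to 69.0 TPM in knockout oocytes and 0.682 to 33.8 TPM in control oocytes, and 10 blood and immune markers at 0 to 26.4 TPM and 0 to 12.3 TPM.

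Bex3 was the most abundant member in 19 of 20 libraries, the exception being Gctrl GO replicate 1, in which Bex1 was highest. Outside the Gctrl growing oocytes, Bex3 made up 48.2% to 98.3% of the summed TPM of the family. Bex2 was the lowest member in 12 of 20 libraries. The family sum was lowest in Gctrl growing oocytes, at 4.07 and 3.93 TPM, and was between 167 and 968 TPM in the other 18 libraries. All 4 genes had their lowest mean in that group. Bex1, Bex2 and Bex3 had their highest mean in P5 DcKO oocytes and Bex4 had its highest in P1 DcKO oocytes.

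**Figure D2:**
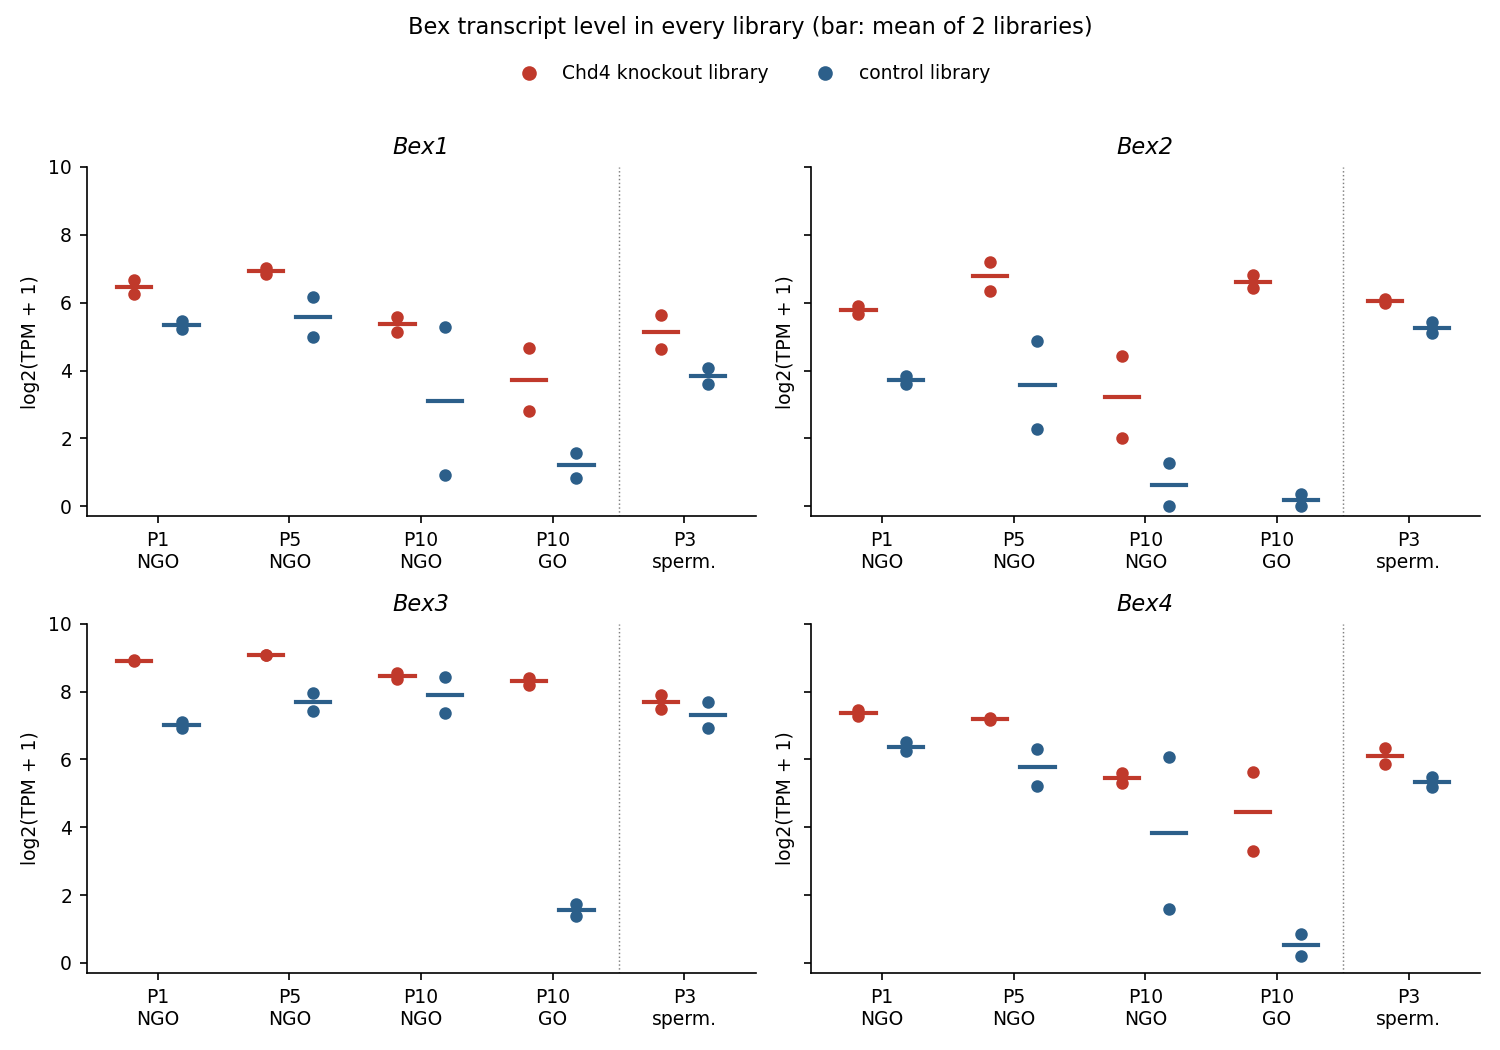
Level of each Bex gene in every library, as log2(TPM + 1) on the vertical axis, for the 5 stages on the horizontal axis, with knockout libraries in red left of control libraries in blue. Points are libraries and bars are the mean of 2 libraries: the control growing oocytes sit lowest in all 4 panels, while knockout growing oocytes had 339.5 and 293 TPM of Bex3.

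The ranking of the 10 groups differed among the members. For Bex3 the order began with P5 DcKO (539.6 ± 6.83 TPM, SD, n = 2) and P1 DcKO (480.3 ± 8.25 TPM), whose libraries did not overlap with each other or with the next group. Below them, P10 GcKO NGO, P10 GcKO GO, P10 Gctrl NGO, P5 Dctrl, P3 DcKO, P3 Dctrl and P1 Dctrl followed with means between 351 and 129 TPM, and the libraries of each neighbouring pair in that stretch overlapped. Bex3 in Gctrl GO, at 1.98 ± 0.507 TPM, stood apart below all of them. For Bex2 the order was different, since knockout growing oocytes ranked second (98.4 ± 17.5 TPM) and both spermatogonial groups ranked the third and the fifth (65.6 ± 3.64 TPM in DcKO and 37.6 ± 6.39 TPM in Dctrl). Bex1 and Bex4 both had P1 and P5 DcKO oocytes on top and overlapping neighbours through the middle of the order.

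At P1, all 4 Bex genes were higher in DcKO than in Dctrl oocytes, and the libraries of the 2 groups did not overlap for any of the 4, as for 18.4% of all genes in that direction. Bex3 stood at 486 and 474 TPM in DcKO oocytes, against 122 and 136 TPM in Dctrl oocytes. Bex2 stood at 58.9 and 49.8 TPM in DcKO oocytes, against 11.2 and 13.2 TPM in Dctrl oocytes. The knockout to control ratio of the means was 3.73 for Bex3 and 4.47 for Bex2. Bex1 stood at 75.9 and 101 TPM in DcKO oocytes, against 36.7 and 42.9 TPM in Dctrl oocytes. Bex4 stood at 176 and 155 TPM in DcKO oocytes, against 75.2 and 89.7 TPM in Dctrl oocytes. For Bex1 and Bex4 the ratio was 2.22 and 2.00.

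On the log2(TPM + 1) scale, differences were fitted with limma over all 8 oocyte groups together, so that the standard error (SE) of a gene reflects its spread in all of them, and a gene was called at a Benjamini-Hochberg adjusted p under 0.05 over all 20470 genes tested. All 4 members passed the filter on low values, a TPM of at least 1 in 2 libraries. In this limma fit the deleted gene Chd4 was called lower at P1 (log2 fold change -2.87, adjusted p = 0.0136). It was not called at P5 (-1.20, adjusted p = 0.351), in P10 NGO (-0.68, 0.615) or in P10 GO (-0.65, 0.488). Since Chd4 was low in the P10 controls too, its values do not settle whether its RNA was lost there. The fitted log2 fold change at P1 was 1.89 (SE 0.296) for Bex3, 2.07 (SE 0.854) for Bex2, 1.12 (SE 1.05) for Bex1 and 1.00 (SE 1.10) for Bex4. Of the 4 members 1, Bex3, was called higher, beside 0.86% of all genes. Of 15 germ cell markers 0 were called higher and 2, Zp3 and Gdf9, lower, beside 0.84% of all genes called lower. Gdf9 had 3.96 and 1.38 TPM in DcKO and 27.6 and 37.4 TPM in Dctrl. Among markers of other cells, the 8 endothelial markers summed to 27.97 and 20.5 TPM in DcKO and 9.30 and 11.2 TPM in Dctrl. The 10 neuronal and glial markers summed to 19.3 and 15.95 TPM in DcKO and 7.16 and 8.50 TPM in Dctrl. The part of these germ cell and other markers in the Bex values was not tested. No gene of the family was called when Dctrl replicate 1, Dctrl replicate 2 or DcKO replicate 1 was left out, whereas Bex2, Bex3 and Bex4 were called when only the 4 P1 libraries were fitted.

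At P5 all 4 genes were again higher in DcKO than in Dctrl oocytes with no overlap, as were 23.9% of all genes. Bex3 had 535 and 544 TPM in DcKO oocytes, against 246 and 172 TPM in Dctrl oocytes. Bex2 had 81.1 and 147 TPM in DcKO oocytes, against 28.2 and 3.81 TPM in Dctrl oocytes. The control libraries differed from each other by a larger factor for Bex2 than for Bex3, and Dctrl replicate 2 was the lower library for every member. Bex1 had 114 and 128 TPM in DcKO oocytes, against 70.3 and 30.5 TPM in Dctrl oocytes. Bex4 had 141 and 148 TPM in DcKO oocytes, against 78.9 and 36.3 TPM in Dctrl oocytes. The ratio of means was 7.14 for Bex2 and between 2.41 and 2.58 for the other 3 genes.

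The fitted log2 fold change at P5 was 3.22 (SE 0.854) for Bex2, 1.41 (SE 1.10) for Bex4, 1.39 (SE 0.296) for Bex3 and 1.37 (SE 1.05) for Bex1. Bex3 was the single member called higher, beside 1.05% of all genes. The Bex2 value was 4.52 without Dctrl replicate 1 and 1.92 without Dctrl replicate 2. Without the same libraries Bex1 stood at 1.96 and 0.78, and Bex4 at 1.96 and 0.86. The Bex3 call was lost under 6 other settings and when Dctrl replicate 2, DcKO replicate 1 or DcKO replicate 2 was left out, and without Dctrl replicate 1 both Bex2 and Bex3 were called. The gonadal supporting cell markers summed to 30.6 and 69.0 TPM in P5 DcKO and 14.8 and 7.76 TPM in P5 Dctrl, and Inha was the 1 of 9 tested called higher. The median log2 fold changes of that list and of the endothelial and the blood and immune markers were 0.68, 0.60 and 0.66, beside 0 over all genes, and the part of these cells was not tested. The difference between the knockout effects at P5 and at P1 was called for 0 of 4 members by limma, beside 0.313% of all genes. At an unadjusted p under 0.05 that count was also 0 of 4, beside 7.35% of all genes, and voom on recovered reads called 0 members and 166 genes. The fitted difference was 1.15 for Bex2 (SE 1.21), 0.42 for Bex4 (SE 1.55), 0.25 for Bex1 (SE 1.49) and -0.51 for Bex3 (SE 0.418).

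In control oocytes the family had no common direction between these ages, with P5 over P1 log2 fold changes of 0.67 for Bex3, 0.22 for Bex1, -0.15 for Bex2 and -0.61 for Bex4. Bex3 averaged 209 ± 52.3 TPM in P5 Dctrl and 129 ± 9.99 TPM in P1 Dctrl oocytes (SD, n = 2 each), and was the only member whose libraries did not overlap in the higher direction, which held for 27.1% of all genes. Bex4 averaged 57.6 ± 30.1 TPM at P5 and 82.4 ± 10.2 TPM at P1. By limma 0 of 4 members were called, beside 4.7% of all genes, with 1 of 4 at an unadjusted p under 0.05, beside 16.3% of all genes. The voom fit called 0 members and 1011 genes. These Dctrl libraries are also the controls of the knockout comparisons, so the comparisons are not independent.

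Among the 5 knockout comparisons, Bex2, Bex3 and Bex4 had their largest fitted fold changes in growing oocytes at P10. For Bex1 the fitted values in P10 GO and P10 NGO were close, at 2.52 and 2.27, and with quantile normalization both were 2.03. With the other scalings, including voom, the GO value reached 3.36 and the NGO value 2.79. The ratio of the Bex1 mean TPM was 10.8 in GO and 2.11 in NGO, where the Gctrl libraries differed widely. In Gctrl GO no Bex gene had more than 18 reads in a library, and in GcKO GO none had fewer than 46. Bex3 had 339.5 and 293 TPM in GcKO GO, which are 2480 and 1847 recovered reads, against 1.62 and 2.34 TPM in Gctrl GO, which are 12 and 17 reads. The ratio of the mean TPM was 159.5. Bex2 had 111 and 86.1 TPM in GcKO GO, from 751 and 504 reads, against 0.292 and 0 TPM in Gctrl GO, from 2 and 0 reads. Per recovered read, the summed Bex2 reads were 734 times as frequent in GcKO GO as in Gctrl GO, with an exact 95% interval of 203 to 6065 that covers counting error only.

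Bex4 and Bex1 showed the same direction in growing oocytes, with knockout libraries that differed from each other. Bex4 had 48.1 and 8.84 TPM in GcKO GO, from 302 and 48 reads, against 0.157 and 0.800 TPM in Gctrl GO, from 1 and 5 reads. Bex1 had 24.1 and 5.98 TPM in GcKO GO, from 215 and 46 reads, against 2.00 and 0.790 TPM in Gctrl GO, from 18 and 7 reads. For both genes GcKO replicate 1 was the higher library, whereas Bex2 and Bex3 were at similar levels in both. The ratio of means was 59.4 for Bex4 and 10.8 for Bex1, and none of the 4 genes had overlapping libraries, as for 30.3% of all genes in that direction.

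The fitted log2 fold change in GO was 6.74 (SE 0.296) for Bex3, 6.44 (SE 0.854) for Bex2, 3.93 (SE 1.10) for Bex4 and 2.52 (SE 1.05) for Bex1. With so few control reads the values of Bex2 and Bex4 move with the pseudocount, and with 0.1 in place of 1 TPM they were 8.95 and 5.43. Of the 4 members 3, Bex2, Bex3 and Bex4, were called higher, beside 9.12% of all genes. The median fold change of the family was 5.18 on the log2 scale, beside 0.06 over all genes tested. Leaving out GcKO replicate 1 gave 2.77 for Bex4 and 1.59 for Bex1, and leaving out GcKO replicate 2 gave 5.09 and 3.44. Bex4 was no longer called when Gctrl replicate 1, Gctrl replicate 2 or GcKO replicate 1 was left out, without the filter on low values, or with only the 4 growing oocyte libraries fitted, while Bex2 and Bex3 were called in all 12 alternatives. Summed over its 17 markers, the gonadal supporting cell list was at 15.5 and 14.9 TPM in GcKO GO and at 3.14 and 0.682 TPM in Gctrl GO, led by Kitl and Krt19. Krt19, the 1 of 9 tested members of that list called higher, averaged 3.06 TPM in GcKO GO and was at 0 in both Gctrl GO libraries, while Amhr2, Fshr, Cldn11, Aard and Nr5a1 were at 0 in both GcKO libraries. The 8 endothelial markers summed to 103 and 2.89 TPM in GcKO GO and 6.64 and 2.96 TPM in Gctrl GO, led by Pecam1 with a mean of 50.4 TPM in GcKO GO and 2.12 TPM in Gctrl GO, while Cdh5, Emcn and Eng were at 0 in both GcKO libraries. Blood and immune markers summed to 1.94 and 0 TPM in GcKO GO and to 0 in both Gctrl GO libraries. Neuronal and glial markers, of cells in which Bex genes are known to be expressed, summed to 28.3 and 25.1 TPM in GcKO GO and 27.3 and 39.3 TPM in Gctrl GO, with Snap25, Stmn2 and Sox10 at 0 in both GcKO libraries. Of 15 germ cell markers 4 were called higher in GcKO GO, namely Sohlh1, Nobox, Figla and Dppa3, the last with 94336 and 105478 TPM in GcKO GO and 45242 and 46799 TPM in Gctrl GO. The part of these shifts in oocyte, supporting cell and endothelial markers in the Bex values was not tested.

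**Figure D3:**
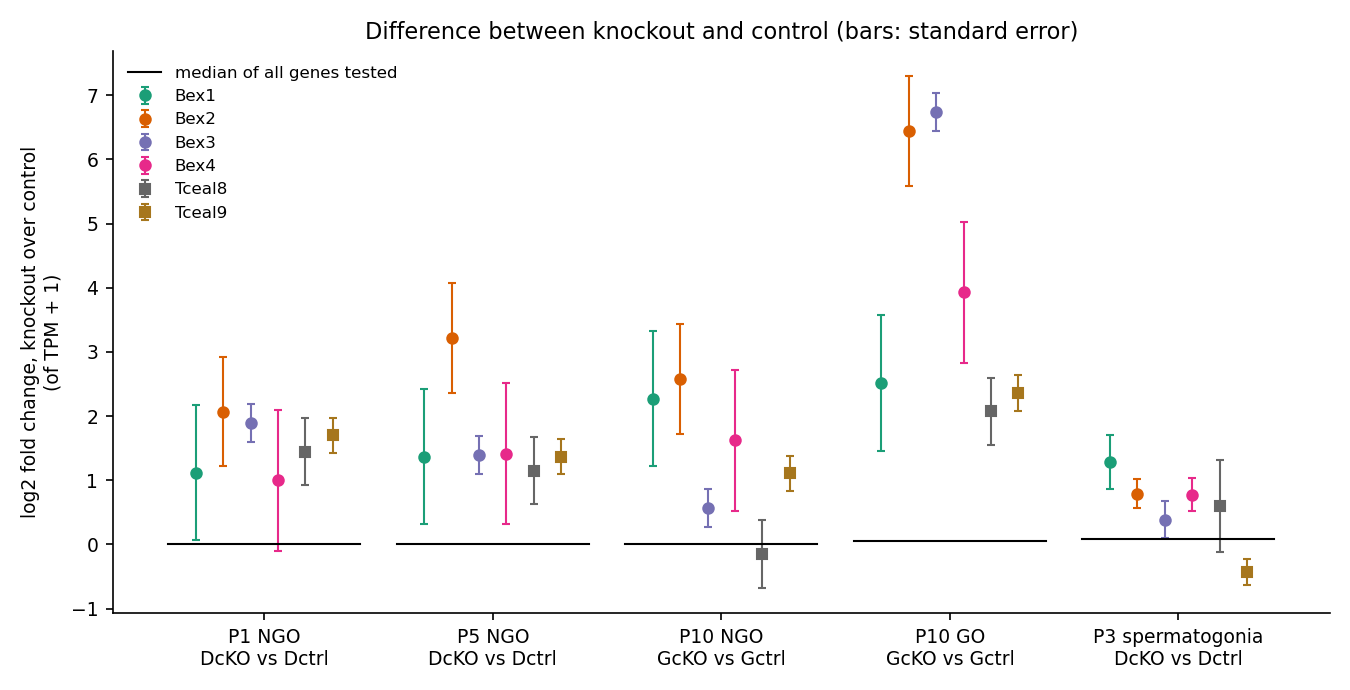
Fitted log2 fold change of TPM + 1, knockout over control, on the vertical axis for the 5 knockout comparisons on the horizontal axis. Circles are the 4 Bex genes, squares are the neighbouring relatives Tceal8 and Tceal9, bars are the SE of the fit and black lines are the median of all genes tested, which is 0.06 in growing oocytes where Bex3 reached 6.74.

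In non-growing oocytes of the same age the difference was smaller and less even. Bex3 had 372 and 329.8 TPM in GcKO NGO, against 164 and 341 TPM in Gctrl NGO, and these libraries overlapped. Bex2 had 20.5 and 3.02 TPM in GcKO NGO, from 175 and 22 reads, against 0 and 1.42 TPM in Gctrl NGO, from 0 and 9 reads. It was the only member whose libraries did not overlap at this stage, as for 17.4% of all genes in that direction. Bex1 had 34.3 and 47.0 TPM in GcKO NGO, against 0.874 and 37.7 TPM in Gctrl NGO. Bex4 had 48.0 and 38.8 TPM in GcKO NGO, against 2.01 and 66.8 TPM in Gctrl NGO. Gctrl replicate 1 was the lowest library for all 4 genes, with 8 reads of Bex1 and 13 of Bex4, although its Bex3 level was 164 TPM.

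In that comparison limma called 0 of 4 members, beside 1.02% of all genes called higher. At an unadjusted p under 0.05 the count was 1 of 4, beside 15.6% of all genes, and voom called 0 members and 754 genes. The fitted log2 fold changes, 2.58 for Bex2, 2.27 for Bex1, 1.63 for Bex4 and 0.56 for Bex3, depended on single libraries. Without Gctrl replicate 2 both Bex1 and Bex4 were called, at 4.46 and 3.87, and without Gctrl replicate 1 their log2 fold changes were 0.09 and -0.62. Bex2 moved most with the GcKO libraries, to 1.37 without GcKO replicate 1 and 3.79 without GcKO replicate 2. Neuronal and glial markers summed to 17.2 and 18.97 TPM in GcKO NGO and 10.8 and 3.51 TPM in Gctrl NGO. Of 15 germ cell markers 0 were called higher and 1, Ddx4, lower, beside 0.90% of all genes called lower. Ddx4 had 177 and 113 TPM in GcKO NGO and 385 and 366 TPM in Gctrl NGO. The part of these markers in the Bex values was not tested.

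The knockout effect in GO was set against that in NGO in the same fit. For Bex3 the effect was greater in GO by 6.18 on the log2 scale (SE 0.418), and it was the 1 member of 4 called, beside 4.84% of all genes called in that direction. The difference was 3.86 for Bex2 (SE 1.21), 2.30 for Bex4 (SE 1.55) and 0.24 for Bex1 (SE 1.49). For Bex1 it ranged from -1.94 without Gctrl NGO replicate 2 to 2.43 without Gctrl NGO replicate 1. Bex2 was also called with median-of-ratios scaling and without GcKO NGO replicate 1, and Bex4 without Gctrl NGO replicate 1.

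Between the control groups at P10, Bex3 was lower in GO than in NGO (log2 fold change -6.33, SE 0.296), as was Bex4 (log2 fold change -3.31, SE 1.10). These were the 2 of 4 members called lower, beside 13.2% of all genes, and the same 2 had non-overlapping libraries, as did 29.7% of all genes in that direction. Bex3 averaged 1.98 ± 0.507 TPM in Gctrl GO and 253 ± 125 TPM in Gctrl NGO (SD, n = 2 each). Bex1 averaged 1.39 ± 0.854 TPM in Gctrl GO and 19.3 ± 26.1 TPM in Gctrl NGO, with overlapping libraries, and Bex2 was low in both groups. The Bex4 call was lost under 4 other settings and when Gctrl NGO replicate 2 or either Gctrl GO replicate was left out, and Bex1 was called as well without Gctrl NGO replicate 1. Both groups are also the controls of the P10 knockout comparisons. In bulk samples fewer cells with a transcript and less transcript per cell cannot be told apart.

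In P3 spermatogonia the family was present in all 4 libraries, with a summed level of 199 to 404 TPM. Bex1 had 24.1 and 48.8 TPM in DcKO, against 11.3 and 16.003 TPM in Dctrl spermatogonia. Bex2 had 63.0 and 68.2 TPM in DcKO, against 33.1 and 42.2 TPM in Dctrl. Bex4 had 79.2 and 57.6 TPM in DcKO, against 35.1 and 43.3 TPM in Dctrl. These 3 genes had non-overlapping higher libraries, which held for 27.9% of all genes in this comparison. Bex3 had 238 and 177 TPM in DcKO, against 119.9 and 205 TPM in Dctrl, and its libraries overlapped.

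The fitted log2 fold changes in spermatogonia were 1.29 for Bex1 (SE 0.422), 0.79 for Bex2 (SE 0.225), 0.78 for Bex4 (SE 0.252) and 0.38 for Bex3 (SE 0.290). By limma over 18671 genes 0 of 4 members were called, as was 0% of all genes. The same fit did not call the deleted gene Chd4 (log2 fold change -2.52, adjusted p = 0.0671), so the 0 says little of the members. At an unadjusted p under 0.05 the count was 3 of 4 members, beside 3004 genes or 16.1% of all genes, and voom called 0 members and 1 gene. Markers of other cells moved in the same direction in these libraries. The 10 blood and immune markers summed to 291 and 338 TPM in DcKO and 96.4 and 78.8 TPM in Dctrl, led by Fcer1g with a mean of 298 TPM in DcKO and 82.3 TPM in Dctrl, while Ptprc and C1qa were at 0 in both DcKO libraries. The median log2 fold change of the 3 tested blood and immune markers was 1.27, beside 0.09 over all genes. The 14 stromal markers summed to 50.9 and 49.7 TPM in DcKO and 14.7 and 14.3 TPM in Dctrl, and the 10 neuronal and glial markers to 50.8 and 67.1 TPM in DcKO and 18.3 and 26.7 TPM in Dctrl. The 17 supporting cell markers summed to 149 and 179 TPM in DcKO and 148 and 85.1 TPM in Dctrl, and the 8 endothelial markers to 73.3 and 78.1 TPM in DcKO and 40.5 and 45.2 TPM in Dctrl. The part of these cells in the Bex values was not tested. Levels in oocytes and spermatogonia come from separately deposited tables and were not tested against each other.

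Across the 16 oocyte libraries Bex1 and Bex4, the pair with the shared upstream run, had the most similar pattern of any pair in the family. Pearson's r of log2(TPM + 1) was 0.97 over all 16 libraries, 0.97 without the Gctrl growing oocytes and 0.96 over the 12 NGO libraries. Bex2 and Bex3, which also share an upstream run, had r = 0.67, 0.58 and 0.61 over the same sets. Over all 16 libraries that r was the lowest of the 6 pairs, and the other 4 pairs had r between 0.68 and 0.82. The ranking changed with the set. Without the Gctrl growing oocytes the other 4 pairs had r between 0.45 and 0.52, below Bex2 and Bex3. Over the NGO libraries Bex1 with Bex3 (0.59) and Bex3 with Bex4 (0.515) were below Bex2 and Bex3. There Bex2 with Bex1 (0.815) and with Bex4 (0.819) were above. The values are descriptive, the libraries form groups of 2, and Bex1 and Bex4 share part of their transcript sequence.

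**Figure D4:**
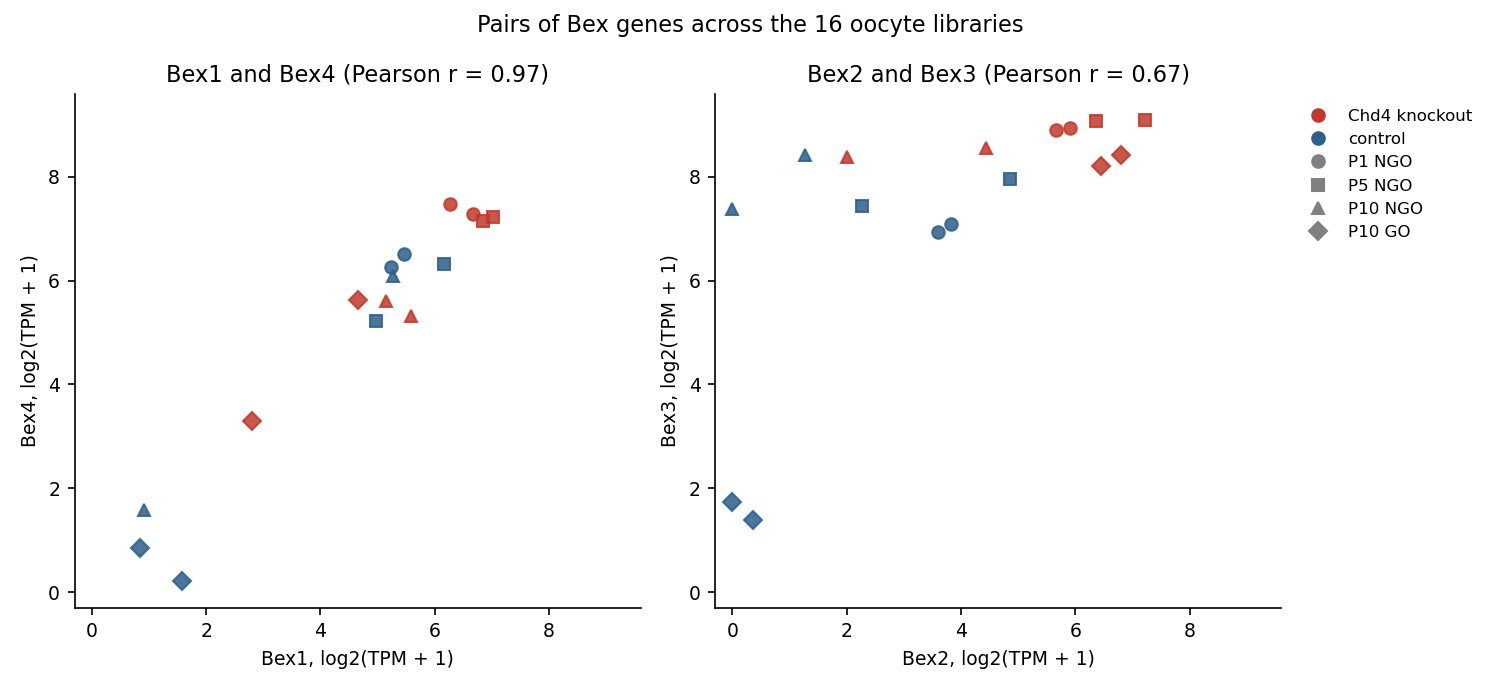
Level of Bex4 against Bex1 (left) and of Bex3 against Bex2 (right) in the 16 oocyte libraries, both axes as log2(TPM + 1). Red points are knockout and blue points control libraries, with 1 marker shape per stage: Bex1 and Bex4 lie along 1 line (r = 0.97), while Bex3 stays high in the P10 non-growing libraries in which Bex2 is low (r = 0.67).

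Among 7705 genes with a mean of at least 5 TPM, the 3 genes most like each member over the 16 oocyte libraries were found by the same r. They were Rdh14 (0.94), Zfp993 (0.92) and Wdr93 (0.91) for Bex1 and Xlr (0.94), Tmem192 (0.93) and Ipo11 (0.93) for Bex4. For Bex2 they were the X-linked homeobox genes Rhox2f (0.96) and Rhox6 (0.96), and Hus1b (0.95). For Bex3 they were Inafm2 (0.96), the epithelial adhesion gene Epcam (0.96) and Cox6c (0.96), which encodes a subunit of cytochrome c oxidase. The other members and predicted gene models were left out of this search. Outside that rule, the ranks of the cluster neighbours Tceal9 and Tceal8 were also read. Tceal9 ranked 16 of 7705 for Bex3 (r = 0.92), 40 for Bex1, 95 for Bex4 and 319 for Bex2. Tceal8 ranked 35 for Bex2 (r = 0.86), 1799 for Bex3, 3129 for Bex4 and 3254 for Bex1.

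The related X-linked genes of the Tceal, Armcx and Gprasp families and Bhlhb9, with Bex6, were compared as a list of 17, of which 8 passed the filter in oocytes and 13 in spermatogonia. Their median log2 fold change was 1.03 at P1, 1.26 at P5, 0.81 in P10 NGO, 1.92 in P10 GO and 0.34 in spermatogonia. Over all genes tested the median was 0 in the 3 NGO comparisons, 0.06 in P10 GO and 0.09 in spermatogonia. By limma with Benjamini-Hochberg adjustment, 1 of 8 rose at P1, 1 at P5, 1 in P10 NGO and 3 in P10 GO, beside 0.86%, 1.05%, 1.02% and 9.12% of all genes called higher, and 0 fell in any of these. Of 820 tested X-linked genes outside the Bex family, 1.10%, 3.17%, 1.71% and 14.1% were called higher in the same order. Those called lower numbered 6, 0, 1 and 38. Their median log2 fold change in P10 GO was 0.20, beside 0.06 on the other chromosomes. The part of the X chromosome as a whole in these values was not tested. In spermatogonia 0 of 13 were called, as was 0% of all genes. Tceal9, between Bex1 and Bex3, rose at P1 by 1.70 (SE 0.274, adjusted p = 0.00856), at P5 by 1.37 (adjusted p = 0.0334) and in P10 GO by 2.36 (adjusted p = 0.000148).

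Tceal9 had 797 and 892 TPM in P1 DcKO oocytes, against 245 and 273 TPM in P1 Dctrl oocytes. In P10 growing oocytes it had 287 and 288 TPM in GcKO, against 44.0 and 69.1 TPM in Gctrl. Unlike the Bex genes it was still clearly present in control growing oocytes. Its P1 call was lost without Dctrl replicate 1 (adjusted p = 0.106), Dctrl replicate 2 (0.0613) or DcKO replicate 2 (0.0626). Its P5 call was lost in 7 of 12 alternatives, 3 of which left out Dctrl replicate 2 (0.318), DcKO replicate 1 (0.141) or DcKO replicate 2 (0.196). Its P10 GO call held in all 12 alternatives, with adjusted p between 6.21e-05 and 0.0157.

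Tceal8, between Bex4 and Bex1, rose in P10 GO by 2.07 (adjusted p = 0.0202), with 97.7 and 136 TPM in GcKO and 18.3 and 38.4 TPM in Gctrl. That call was lost without Gctrl replicate 1 (adjusted p = 0.169) or GcKO replicate 2 (0.104). Gprasp2, a GPCR-associated sorting gene, rose in P10 GO by 3.72 (adjusted p = 0.00320), with 14.6 and 11.8 TPM in GcKO and 0.116 and 0.0295 TPM in Gctrl. It also rose in P10 NGO by 3.25 (adjusted p = 0.0336), with 26.5 and 4.34 TPM in GcKO and 0.371 and 0.189 TPM in Gctrl. The NGO call of Gprasp2 was lost in 7 of 12 alternatives, including those without Gctrl replicate 1 (0.0658), Gctrl replicate 2 (0.116) or GcKO replicate 1 (0.0688). In Gctrl GO against Gctrl NGO, 2 of the 8 fell, beside 13.2% of all genes, Tceal9 (log2 fold change -2.46) and Bhlhb9 (log2 fold change -3.19, adjusted p = 0.00902), and the Bhlhb9 call was lost without Gctrl NGO replicate 2 (adjusted p = 0.0590) or Gctrl GO replicate 1 (0.0999). Bex6 had 0.914 and 6.35 TPM in GcKO GO and 0 TPM in both Gctrl GO libraries, and did not pass the filter in oocytes.

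**Figure D5:**
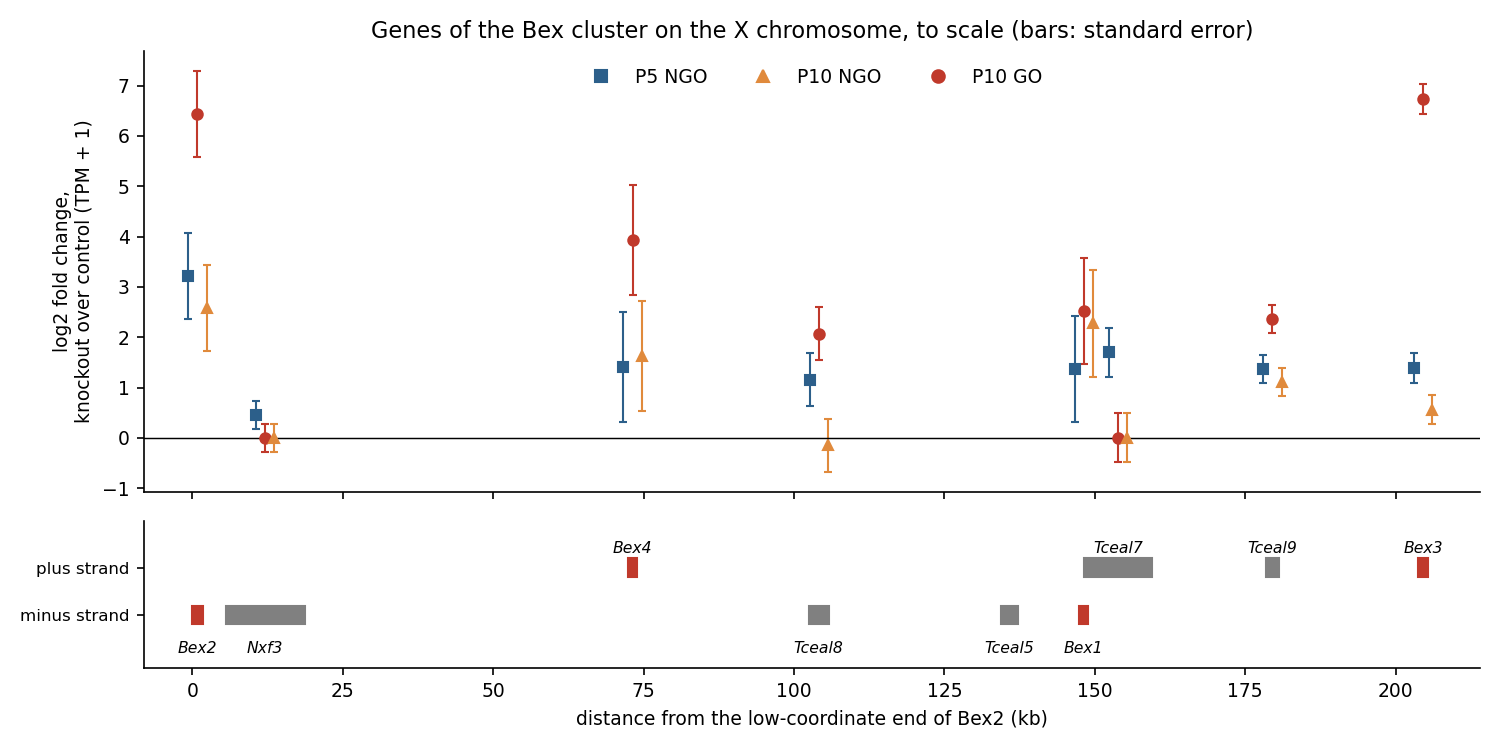
Protein-coding genes of the Bex cluster drawn to scale in the lower panel, with distance in kb from the low-coordinate end of Bex2 on the horizontal axis, Bex genes in red and other genes in grey. The upper panel gives the fitted log2 fold change of TPM + 1, knockout over control, with its SE, for P5 NGO, P10 NGO and P10 GO: in growing oocytes Bex3 and Bex2, at the 2 ends, stood at 6.74 and 6.44, Tceal9 and Tceal8 at 2.36 and 2.07, and Nxf3 and Tceal7 at 0. Tceal7 was at 0 TPM in all Gctrl and GcKO growing oocyte libraries, so its 0 does not show an unchanged transcript. Nxf3 averaged only 0.32 as log2(TPM + 1) over the oocyte libraries, and its fitted log2 fold change at P1, not drawn, was 2.14. Tceal5 did not pass the filter.

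Of 25 genes of neurotrophin receptor signalling through p75NTR, 16 passed the filter in oocytes and 18 in spermatogonia. Of these 0 rose and 0 fell at P1, at P5, in P10 NGO and in spermatogonia, while 2 of 16 rose in P10 GO, a count near the 9.12% of all genes called higher there. The list median in P10 GO was 0.19 beside 0.06 over all genes. Maged1, which encodes the p75NTR-binding protein NRAGE, rose by 2.99 (adjusted p = 8.06e-05), with 67.4 and 42.5 TPM in GcKO GO and 7.84 and 4.31 TPM in Gctrl GO. Irak1, which encodes a kinase of interleukin and p75NTR signalling, rose by 2.77 (adjusted p = 0.000342), with 18.7 and 17.9 TPM in GcKO GO and 1.84 and 1.82 TPM in Gctrl GO. Both calls held in all 12 alternatives. The receptor gene Ngfr itself was low in oocytes, at 0.0387 and 0 TPM in GcKO GO and at 0 and 5.09 TPM in Gctrl GO.

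Of 10 genes of the CUL2 ligase with FEM1B and its substrates, all 10 passed the filter, 0 were called at P1, at P5, in P10 NGO and in spermatogonia, and 2 of 10 rose in P10 GO, beside 9.12% of all genes. Elob, which encodes elongin B, rose by 0.90 (adjusted p = 0.00350), with 507 and 515 TPM in GcKO GO and 244 and 306 TPM in Gctrl GO. Cul2, the scaffold gene, rose by 1.14 (adjusted p = 0.0254), with 63.9 and 89.7 TPM in GcKO GO and 24.98 and 45.5 TPM in Gctrl GO. The Cul2 call was lost with median-of-ratios scaling, with only growing oocytes fitted, and without Gctrl replicate 1 (adjusted p = 0.220) or GcKO replicate 2 (0.144). Fem1b, the target of BEX proteins, had 6.85 and 10.9 TPM in GcKO GO and 5.04 and 0.967 TPM in Gctrl GO and was not called.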

How the data were processed

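The authors deposited TPM values per gene, in a table of 16 oocyte libraries and a table of 4 spermatogonia libraries, with 2 libraries a group. Per the labels' protocols, libraries were made with the NEBNext Single Cell/Low Input kit and read as 150-base pairs. Per the submitters' processing notes, Trimmomatic 0.39, STAR 2.5.4b, SAMtools 1.9 and featureCounts 2.0.1 were used with GRCm38. How reads that match several genes were counted, and whether strand was used, is not given in the sources used here.

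Reads were recovered from the deposited TPM and GENCODE M21 exon lengths: 98.7% to 99.3% of values under 20 reads came out within 0.05 of a whole number. Intervals and floors of such reads cover counting error only. log2(TPM + 1) was tested with limma 3.58.1 (R 4.3.3) in 1 fit per table, over genes at 1 TPM or more in 2 libraries (20470 and 18671 genes), with Benjamini-Hochberg adjustment and a threshold of 0.05. A fold change on the log2(TPM + 1) scale understates the change of low genes. The procedure was tested on simulated data. Alternatives were a pseudocount of 0.1, no filter, a filter of 5 TPM, quantile normalization, median-of-ratios scaling, a replicate block, only the compared groups, voom on recovered reads, and each library left out.

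All 4 members are named in every group. In each list, up to 4 genes past the threshold with the smallest p are named, and, for likeness, the 3 genes with the highest Pearson's r per member. The members, lists and tests were chosen with earlier results of these data known. Figures were drawn with matplotlib 3.10.9 and alignments made with Biopython 1.88.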

Additional observations from a re-analysis of the deposited data

Results flagged for a closer look

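A test of the difference between the knockout effect in growing oocytes and that in non-growing oocytes at P10, in the same limma fit with Benjamini-Hochberg adjustment, passed the threshold for Bex3, for 2 of 16 tested genes of the p75NTR list and for 2 of 10 of the CUL2 and FEM1B list, beside 4.84% of all genes called in that direction. Bex3 differed by 6.18 on the log2 scale. Its values chose the family, so this is a description. Maged1 differed by 2.67 (adjusted p = 0.00484) and Irak1 by 2.17 (adjusted p = 0.0254). Cul2 differed by 2.23 (adjusted p = 0.00943) and Elob by 1.46 (adjusted p = 0.00354). For Cul2 and Elob the knockout effect was -1.09 and -0.56 in non-growing oocytes, neither of which was called, and 1.14 and 0.90 in growing oocytes. All 5 genes were higher in both GcKO growing oocyte libraries than in either Gctrl growing oocyte library. The Irak1 difference was lost without GcKO NGO replicate 2 (adjusted p = 0.0585), GcKO GO replicate 1 (0.0528), Gctrl GO replicate 1 (0.0646) or Gctrl GO replicate 2 (0.0647). The Cul2 difference was lost with median-of-ratios scaling (adjusted p = 0.0524). With only the compared groups fitted, the differences of Maged1 (adjusted p = 0.0595), Elob (0.0616), Cul2 (0.0795) and Irak1 (0.163) no longer passed, and the cause was not tested.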

How the results depend on the processing

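The number of the 4 Bex genes past the threshold was recomputed under each alternative. At P1 it was 3 with only the compared groups, where 1 is the reported value. At P5, where 1 is reported, it was 0 with a pseudocount of 0.1, no filter, the filter of 5 TPM, median-of-ratios scaling, the replicate block and only the compared groups, which called 253, 449, 56, 182, 290 and 0 of all genes. A 0 where no gene was called says little of the members. For control GO against NGO, where 2 is reported, it was 1 with no filter, median-of-ratios scaling, only the compared groups and voom. For the knockout effect in GO minus that in NGO, where 1 is reported, it was 2 with median-of-ratios scaling. Leaving out 1 library gave 0 to 1 at P1, 0 to 2 at P5, 0 to 2 in P10 NGO, 2 to 3 in P10 GO, 1 to 3 between control GO and NGO, and 1 to 2 for the difference of effects. In spermatogonia, for P5 against P1 and for the difference of effects between those ages, it stayed at 0. Where a library was left out, the lone library of its group was assumed to vary like the other groups. The cause was not tested.

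Replicate numbers shared between groups did not pair the libraries: correlations of deviations were -0.0070, -0.0492, -0.0048, 0.0206 and 0.0081, and the labels name no shared source. With the replicate block the count was 1 at P1, 0 at P5, 0 in P10 NGO, 3 in P10 GO and 0 in spermatogonia. Over 20 member and knockout comparisons, 234 of 236 alternative fold changes were above 0, the others being Bex4 in P10 NGO without Gctrl replicate 1 and Bex3 in spermatogonia without Dctrl replicate 1. These alternatives refit the same libraries, and the family was chosen by these differences, so the tally is a description and not support. Scaling moved the median of all genes by more than 0.1 only with voom, to 0.26 in P10 GO, -0.25 in P10 NGO, -0.12 at P1, 0.21 for P5 minus P1 and 0.50 for GO minus NGO. Between control GO and NGO, Bex2 was not tested with only the compared groups. Precision is limited by 2 libraries a group and, for Bex2 and Bex4 in control growing oocytes, by 2 and 6 reads in all.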
